A study of Bos taurus with 16 samples.

Results

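MHC class I antigen processing was described in bovine follicle aspirates through 10 genes: BOLA, B2M, TAP1, TAP2, TAPBP, PSMB8, PSMB9, PSMB10, ERAP1 and NLRC5. The genes were chosen by name for their role in the pathway, and 8 of the 10 occurred among the 20629 features counted; TAP1 and NLRC5 were not analysed here. RNA was measured in 16 libraries from lactating Holstein cows (Bos taurus, female, of a cohort of 45 cows) after the cows' ovulation had been synchronized with gonadotropin-releasing hormone and prostaglandin. The dominant follicle was aspirated 63 ± 3 days after calving, and the cells were spun out of the fluid and washed. The study asked whether granulosa cells, the hormone-producing cells that line the follicle, still differ after uterine disease has resolved. Of the libraries, 7 are labelled treatment and 9 control, and the labels do not say what the treatment label stands for, which cow gave a library, or which cows had metritis and received the antibiotic ceftiofur. Neither genotype nor age in years is given, and both labels share the synchronization, the aspiration medium and the storage as frozen cells.

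The libraries held 8111862 to 14348753 counts, with 10828953 ± 1555229 in treatment libraries (SD, n = 7) and 11729463 ± 2005545 in control libraries (SD, n = 9). The tissue field of every label says blood, whereas the protocols describe granulosa cells, and the markers showed 2 kinds of library. INHA, the inhibin alpha chain made by granulosa cells, lay between 0.404 and 111 counts per 1000000 transcript counts of the library (CPM) in 7 libraries, called leukocyte-rich here. It lay between 1759 and 3041 CPM in the other 9, called granulosa-rich, and the libraries nearest to the limits of 200 and 1000 CPM were treatment 1, at 111 CPM, and treatment 4, at 1759 CPM. The leukocyte-rich libraries are treatment replicates 1, 2 and 3 and control replicates 1, 5, 6 and 9. The granulosa-rich libraries are treatment replicates 4, 5, 6 and 7 and control replicates 2, 3, 4, 7 and 8. PTPRC, the leukocyte common antigen, measured 118 to 312 CPM in leukocyte-rich libraries and 6.35 to 98.0 CPM in granulosa-rich libraries. The summed level of 10 pan-leukocyte markers was 5604 to 7983 CPM in leukocyte-rich libraries and 26.2 to 1009.7 CPM in granulosa-rich libraries, and that of 14 granulosa markers was 56.0 to 4826 CPM in leukocyte-rich libraries and 25059 to 119990 CPM in granulosa-rich libraries. Both kinds of library thus hold leukocyte transcripts, and the kinds differ in how much.

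Class I molecules carry peptides from inside a cell to its surface, where cytotoxic T cells inspect them. The proteasome cuts cytosolic proteins into peptides, and its immunoproteasome form uses the catalytic subunits PSMB8, PSMB9 and PSMB10 in place of PSMB5, PSMB6 and PSMB7. The transporter TAP1-TAP2 moves peptides into the endoplasmic reticulum, the aminopeptidase ERAP1 trims them, and tapasin, the product of TAPBP, holds the empty class I molecule at the transporter. The finished molecule is a heavy chain, which BOLA encodes in cattle, bound to beta-2-microglobulin, the product of B2M. Nearly all nucleated cells carry class I molecules, leukocytes carry many, and interferon-gamma raises the transcription of most of the pathway in mammals. NLRC5 is known as a transactivator of class I genes.

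Levels were first set side by side by kind of library. B2M, BOLA and TAP2 were higher in every leukocyte-rich library than in every granulosa-rich library, by 4.83, 8.24 and 2.86 times between the medians. ERAP1, PSMB9 and PSMB10 had higher medians in leukocyte-rich libraries but overlapped, and TAPBP was level, at a ratio of medians of 0.996. PSMB8 was near the counting floor in most libraries of both kinds. Of the 8 genes, 3 thus did not overlap with leukocyte-rich libraries higher, where 5.88% of all 20629 features and 11.4% of the 9662 features with a mean of at least 1 CPM did so, and none of the 8 was lower throughout, where 2.95% and 6.14% of these features were. The kinds were defined from a measured gene, so no test was made between them. In such bulk samples fewer cells of a type and less RNA per cell cannot be told apart. CPM values are not divided by transcript length and are compared between libraries, not between genes.

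The heavy chain and its partner stood highest above the granulosa-rich libraries. B2M measured 6760.5, 3245 and 5399 CPM in leukocyte-rich treatment libraries 1, 2 and 3, and 2077, 4065, 3119 and 4671 CPM in leukocyte-rich control libraries 1, 5, 6 and 9. B2M measured 901, 563, 842 and 931 CPM in granulosa-rich treatment libraries 4, 5, 6 and 7, and 106, 1718, 299.7, 364 and 939 CPM in granulosa-rich control libraries 2, 3, 4, 7 and 8. The lowest leukocyte-rich library, control 1, lay just above the highest granulosa-rich library, control 3, and the granulosa-rich control libraries spread far more widely than the granulosa-rich treatment libraries. BOLA measured 111, 58.7 and 101.5 CPM in leukocyte-rich treatment libraries and 37.6, 61.6, 37.8 and 49.5 CPM in leukocyte-rich control libraries, in the same order. BOLA measured 9.45, 0.915, 20.6 and 9.75 CPM in granulosa-rich treatment libraries and 0.555, 23.2, 3.96, 6.0 and 7.12 CPM in granulosa-rich control libraries. Among granulosa-rich libraries treatment 5 and control 2 were lowest for BOLA and treatment 6 and control 3 highest. The last pair also had the highest PTPRC of the kind, at 97.2 CPM in treatment 6 and 98.0 CPM in control 3, while control 2 had the lowest, at 6.35 CPM. Treatment 5 did not share this: its PTPRC was the median of the kind, at 27.3 CPM. Its BOLA per PTPRC, 0.0336, was the lowest of any library. BOLA was counted over 2 transcript records, which held 49.5% and 50.5% of its counts.

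**Figure D1:**
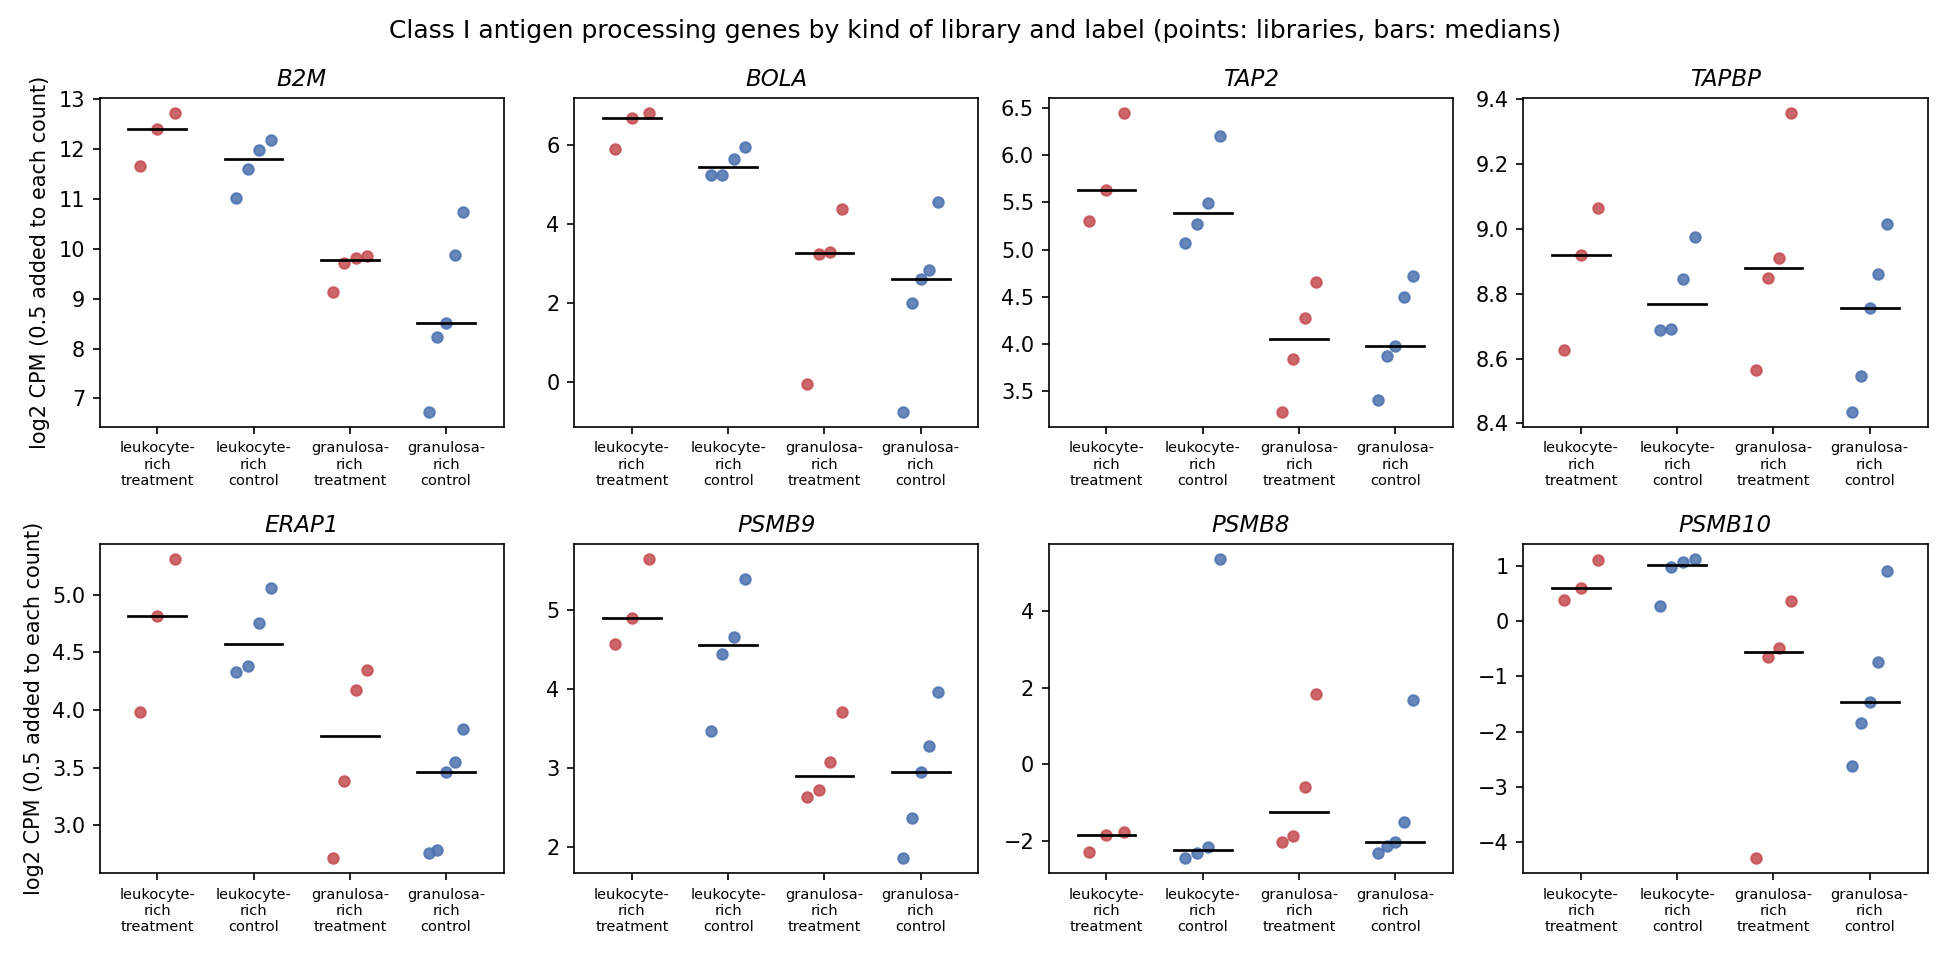
Level of each of the 8 genes as log2 CPM, with 0.5 added to each count, on its own vertical axis. Points are libraries, split by kind and by treatment and control label, and bars are medians; B2M, BOLA and TAP2 show no overlap between leukocyte-rich and granulosa-rich libraries, and the labels overlap within each kind in every panel.

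Class I heavy chains come from near-identical and highly polymorphic genes, and how reads that match several of them were counted is not given in the sources used here, so single heavy chain counts are uncertain. JSP.1, a further bovine class I heavy chain gene that was named after its values were seen, showed another pattern across libraries than BOLA. JSP.1 measured 223, 3.69 and 7.17 CPM in leukocyte-rich treatment libraries 1, 2 and 3, and 2.80, 0.904, 0.404 and 161 CPM in leukocyte-rich control libraries 1, 5, 6 and 9. JSP.1 measured 0.110, 5.90, 7.02 and 30.6 CPM in granulosa-rich treatment libraries 4, 5, 6 and 7, and 0, 2.31, 17.3, 0.0811 and 13.2 CPM in granulosa-rich control libraries 2, 3, 4, 7 and 8. It was high in 1 library of each label among the leukocyte-rich ones, and libraries of both labels were near 0. Of the counts of JSP.1 and BOLA together, JSP.1 held 66.7% in treatment 1, 76.5% in control 9, 86.6% in treatment 5, 75.8% in treatment 7, 81.3% in control 4 and 64.9% in control 8, and at most 25.5% in each of the other 10 libraries. Treatment 5, which was low for BOLA, was among the libraries with a high JSP.1 share.

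TAP2, the chain of the peptide transporter that was counted, measured 87.1, 49.5 and 39.6 CPM in leukocyte-rich treatment libraries and 33.5, 45.0, 38.7 and 73.5 CPM in leukocyte-rich control libraries. TAP2 measured 25.3, 19.3, 9.69 and 14.3 CPM in granulosa-rich treatment libraries and 15.7, 22.6, 10.6, 14.7 and 26.3 CPM in granulosa-rich control libraries. The kinds were separate, with control 1 as the lowest leukocyte-rich and control 8 as the highest granulosa-rich library. TAPBP measured 484, 395 and 535 CPM in leukocyte-rich treatment libraries and 412, 503, 413 and 459 CPM in leukocyte-rich control libraries. TAPBP measured 378, 656, 461 and 481 CPM in granulosa-rich treatment libraries and 432, 517, 465, 346 and 374 CPM in granulosa-rich control libraries. All 16 libraries lay within 346 to 656 CPM, the narrowest range of the 8 genes as a ratio. ERAP1 measured 39.6, 15.8 and 28.2 CPM in leukocyte-rich treatment libraries and 20.8, 20.0, 33.4 and 27.0 CPM in leukocyte-rich control libraries, against 6.51 to 20.3 CPM in granulosa-rich treatment libraries and 6.74 to 14.2 CPM in granulosa-rich control libraries. Treatment 2 and control 5 among leukocyte-rich libraries lay within the granulosa-rich range of ERAP1.

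Of the immunoproteasome subunits, PSMB9 was the best counted. PSMB9 measured 50.0, 23.7 and 29.7 CPM in leukocyte-rich treatment libraries and 10.98, 25.3, 21.8 and 42.1 CPM in leukocyte-rich control libraries. PSMB9 measured 8.35, 6.51, 13.1 and 6.14 CPM in granulosa-rich treatment libraries and 7.70, 15.6, 9.69, 5.11 and 3.56 CPM in granulosa-rich control libraries. Leukocyte-rich control 1 lay within the granulosa-rich range, and the other 6 leukocyte-rich libraries lay above it. PSMB10 had 0 to 24 counts per library, or 1.18 to 2.12 CPM in leukocyte-rich libraries and 0 to 1.85 CPM in granulosa-rich libraries. It was counted over 3 transcript records, which held 7.14%, 4.08% and 88.8% of its counts. Whether the low counts of PSMB10 and PSMB8 reflect low expression or reads lost in counting was not tested. PSMB8 exceeded 3 counts in 5 libraries, and a total of 3 counts corresponds to 0.212 to 0.375 CPM, depending on the library. PSMB8 had 324 counts, or 40.5 CPM, in control 9, 45 counts in treatment 7, 29 in control 8, 6 in treatment 5 and 4 in control 2. PSMB8 lies beside TAP1 in the RefSeq annotation of ARS-UCD2.0, with PSMB9 as the next protein-coding gene. PSMB9 in control 9, at 42.1 CPM, was below that in treatment 1, at 50.0 CPM, where PSMB8 had 2 counts.

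**Figure D2:**
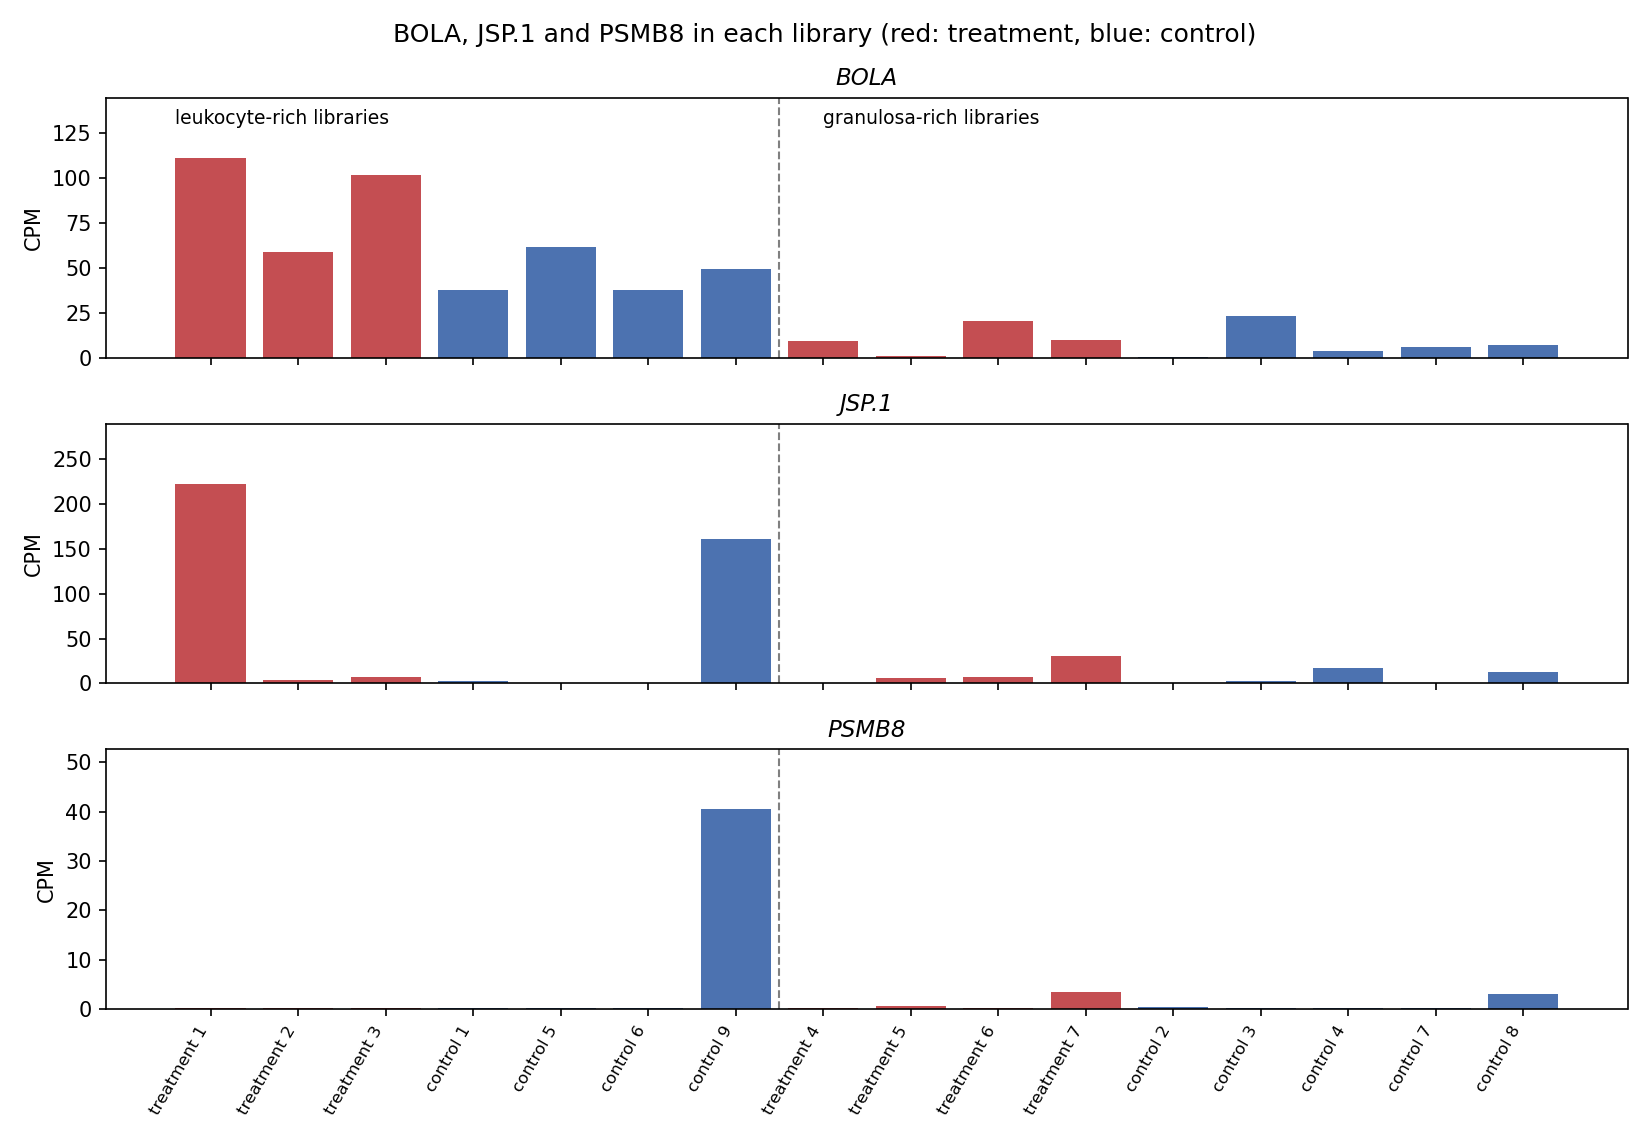
BOLA, JSP.1 and PSMB8 in CPM in each of the 16 libraries, as bars from 0, red for treatment and blue for control, with leukocyte-rich libraries left of the dashed line and granulosa-rich libraries right of it. BOLA is spread over the leukocyte-rich libraries, JSP.1 stands out in treatment 1 and control 9, and PSMB8 in control 9.

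The ratio of an immunoproteasome subunit to the constitutive subunit whose place it takes does not depend on library scaling. The log2 ratio of PSMB9 to PSMB6 counts, with 0.5 added to each, lay between -3.90 and -1.58 in leukocyte-rich libraries, with a median of -2.65, and between -6.04 and -3.71 in granulosa-rich libraries, with a median of -4.69. The ratio of PSMB10 to PSMB7 lay between -7.70 and -6.80 in leukocyte-rich libraries and between -13.0 and -7.14 in granulosa-rich libraries. The value of -13.0 is that of treatment 5, which had 0 PSMB10 counts, so it is set by the 0.5 added. For PSMB9 to PSMB6 and for PSMB10 to PSMB7, the medians were higher in leukocyte-rich libraries and the ranges overlapped. The constitutive subunits themselves were not higher there: PSMB5 had a median of 182 CPM in leukocyte-rich and 385 CPM in granulosa-rich libraries, PSMB6 of 163 CPM in leukocyte-rich and 203 CPM in granulosa-rich libraries, and PSMB7 of 252 CPM in leukocyte-rich and 313 CPM in granulosa-rich libraries, each with overlap.

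Between the labels no subunit ratio differed beyond the spread between libraries. The PSMB9 to PSMB6 log2 ratio averaged -2.22 ± 0.70 in leukocyte-rich treatment libraries (SD, n = 3) and -2.88 ± 0.81 in leukocyte-rich control libraries (SD, n = 4), a difference of 0.67 (two-sided exact permutation test over 35 splits, p = 0.314, adjusted over 6 tests 0.943) that ran from 0.33 to 1.04 when each library in turn was left out. In granulosa-rich libraries it averaged -4.85 ± 0.83 with treatment (SD, n = 4) and -4.71 ± 0.86 with control (SD, n = 5), a difference of -0.14 (exact permutation test over 126 splits, p = 0.794, adjusted 0.943). The differences of PSMB10 to PSMB7 were -0.05 in leukocyte-rich (exact permutation p = 0.943) and -0.18 in granulosa-rich libraries (p = 0.873). The differences of PSMB8 to PSMB5 were -1.53 in leukocyte-rich (exact permutation p = 0.914) and 0.35 in granulosa-rich libraries (p = 0.691). PSMB8 exceeded 3 counts in 5 libraries only, and PSMB10 had 0 to 24 counts per library. The ratios of these 2 subunits thus rest on few counts in most libraries. The smallest p the designs allow is 0.0286 for leukocyte-rich and 0.0079 for granulosa-rich libraries. Without control 9 the leukocyte-rich difference of PSMB8 to PSMB5 was 0.46.

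**Figure D3:**
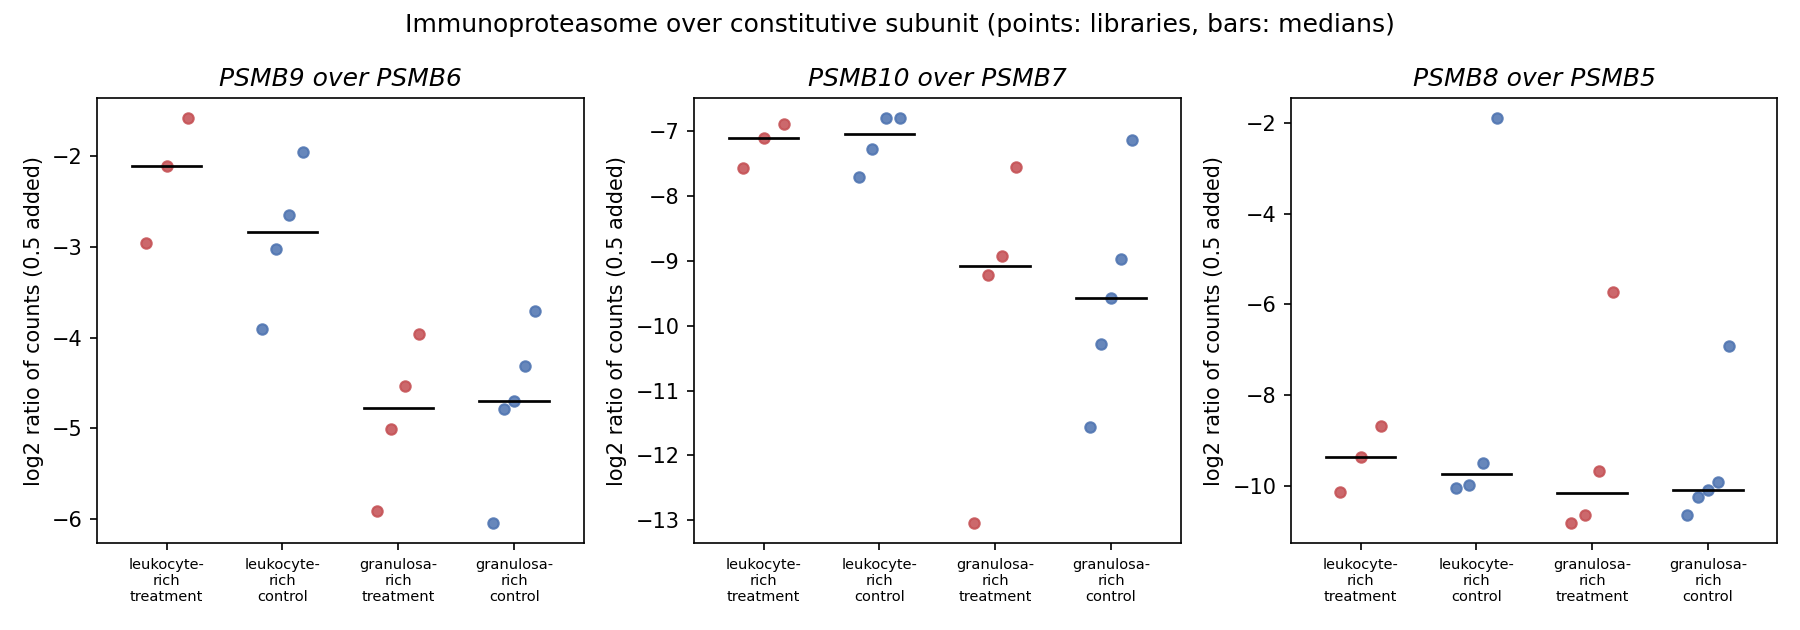
Log2 ratio of counts, with 0.5 added, of each immunoproteasome subunit over the constitutive subunit it replaces. Points are libraries by kind and label and bars are medians; the 3 treatment and 4 control leukocyte-rich libraries overlap in every panel, as do the 4 treatment and 5 control granulosa-rich libraries.

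The members were next set against PTPRC within each kind of library, as log2 CPM, in 16 correlations. In the 9 granulosa-rich libraries B2M and PTPRC had a Pearson r of 0.89 (exact permutation p = 0.0012, Benjamini-Hochberg adjusted p = 0.00957) and a Spearman rho of 0.87 (exact permutation p = 0.00451, adjusted p = 0.0656). BOLA had an r of 0.84 (exact permutation p = 0.00427, adjusted p = 0.0228) and a rho of 0.83 (exact permutation p = 0.00827, adjusted p = 0.0656). Without control 2 and control 3, the libraries farthest from the median PTPRC, r was 0.65 for B2M (exact permutation p = 0.108) and 0.58 for BOLA (exact permutation p = 0.175). Both r values thus depend in part on those libraries, and over the remaining 7 neither p was under 0.05. Neither rho passed 0.05 after adjustment. ERAP1 had an r of 0.58 (exact permutation p = 0.0976, adjusted p = 0.26), and 0.77 (exact permutation p = 0.0101, not adjusted) with the mean of the pan-leukocyte markers in place of PTPRC, where B2M had 0.91 and BOLA 0.92. TAP2, TAPBP and PSMB9 had r values of 0.08, 0.15 and 0.29. Over granulosa-rich libraries of both labels the heavy chain and beta-2-microglobulin thus tended to be high where PTPRC was high. The r of the transporter, tapasin and PSMB9 was near 0 or low. B2M per PTPRC was 15.1 to 17.5 in the 5 control and 8.66 to 37.1 in the 4 treatment libraries, a contrast in spread picked after the values were seen and not tested. BOLA per PTPRC also ranged more widely with treatment. For TAPBP and PSMB9 the control libraries ranged more widely, at 5.28 to 68.1 and 0.0631 to 1.21. With treatment these were 4.745 to 24.1 for TAPBP and 0.134 to 0.344 for PSMB9. Treatment 6, with 97.2 CPM of PTPRC, had 842 CPM of B2M, and treatment 4, with 24.3 CPM of PTPRC, had 901 CPM.

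In the 7 leukocyte-rich libraries TAPBP followed PTPRC most closely, with an r of 0.97 (exact permutation p = 0.00119, adjusted p = 0.00957) and a rho of 0.89 (exact permutation p = 0.0123, adjusted p = 0.0656). Without treatment 3 and control 5 its r was 0.95, and with the mean of the pan-leukocyte markers in place of PTPRC it was 0.81. BOLA had an r of 0.75 (exact permutation p = 0.0625, adjusted p = 0.248) and B2M of 0.71 (exact permutation p = 0.0776, adjusted p = 0.248), and with the pan-leukocyte markers in place of PTPRC these were 0.45 and 0.34. Over this relation TAPBP ranged from 395 to 535 CPM, while PTPRC ranged from 118 to 312 CPM.

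**Figure D4:**
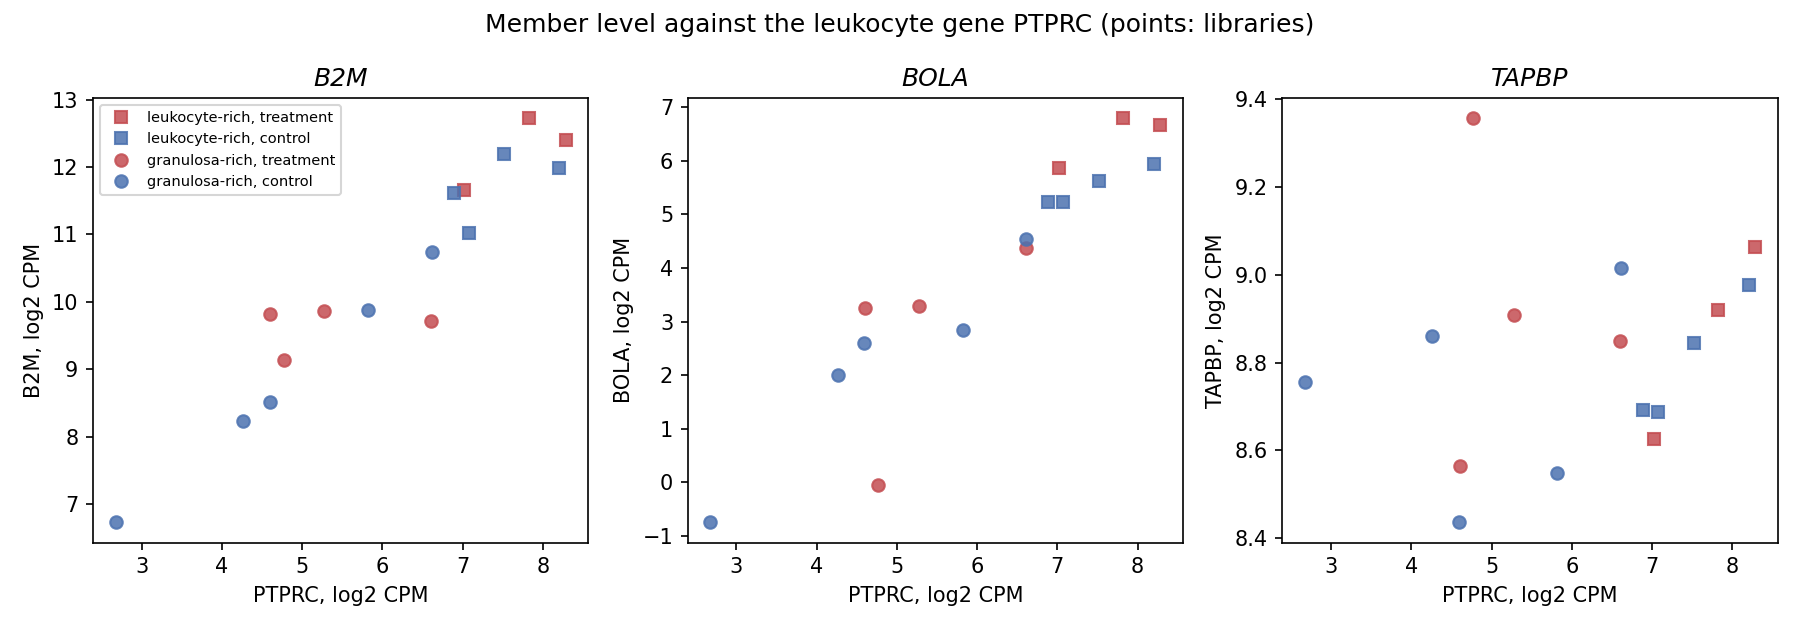
Log2 CPM of B2M, BOLA and TAPBP against log2 CPM of PTPRC, 1 point per library, with squares for leukocyte-rich and circles for granulosa-rich libraries, red for treatment and blue for control. Over granulosa-rich libraries of both labels B2M and BOLA tend to be high where PTPRC is high (r of 0.89 and 0.84). B2M per PTPRC varies more among their treatment than their control libraries, a contrast picked after the values were seen and not tested. TAPBP is high where PTPRC is high among leukocyte-rich libraries (r of 0.97).

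Divided by PTPRC, the medians of B2M and BOLA were still higher in leukocyte-rich libraries, while the medians of the other 6 members were lower there. The kinds lay closest together in this ratio for PSMB9. B2M measured 13.8 to 29.9 times the CPM of PTPRC in leukocyte-rich libraries and 8.66 to 37.1 times in granulosa-rich libraries. On the log2 scale the median of BOLA over PTPRC was -1.65 in leukocyte-rich and -2.24 in granulosa-rich libraries, and its range of -2.26 to -1.02 in leukocyte-rich libraries overlapped that of -4.82 to -1.36 in granulosa-rich libraries. TAPBP over PTPRC was lower in every leukocyte-rich library, at 0.77 to 1.80, than in every granulosa-rich library, at 2.25 to 6.08. TAPBP was the only gene of the 8 whose ratio did not overlap, where 31.7% of 9661 features were lower throughout in this ratio and 0.29% higher. A lower ratio throughout was thus a common pattern over all features and nothing is read from it for TAPBP. The leukocyte-rich minus granulosa-rich difference of the median log2 ratio was 0.59 for BOLA and for B2M, -0.22 for PSMB9, -0.76 for TAP2, -0.87 for ERAP1, -1.01 for PSMB10, -2.52 for TAPBP and -3.24 for PSMB8.

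Treatment and control were compared within each kind with edgeR's quasi-likelihood test over all features, and none of the members passed at an adjusted p under 0.05. Within leukocyte-rich libraries BOLA was the member with the largest fitted difference, with 111, 58.7 and 101.5 CPM in treatment libraries against 37.6, 61.6, 37.8 and 49.5 CPM in control libraries. Treatment 2 lay below control 5, so the labels overlapped. The log2 fold change of BOLA was 0.97 ± 0.28 (SE; edgeR adjusted p = 0.9996), and 0.81 to 1.22 when each library in turn was left out. B2M had 0.57 ± 0.34, PSMB9 0.47 ± 0.44, TAP2 0.30 ± 0.33, ERAP1 0.14 ± 0.34, TAPBP 0.08 ± 0.17 and PSMB10 -0.18 ± 0.38, all with an adjusted p of 0.9996. PSMB8 was too low to be tested there. At the unadjusted p under 0.05, BOLA was 1 of 7 members tested, where 2.61% of 9912 features were below it. At the adjusted threshold 0.0% of features were called, and DESeq2's Wald test called 1 feature, which was no member. The median log2 fold change of the 7 members was 0.30 and that of all features tested 0.01. Since the labels do not tie libraries to cows, the spread behind these p-values may be technical.

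Markers of other cells were summed beside these values. The summed CPM of 16 T and NK cell markers was 507 to 1347 in treatment and 151 to 1288 in control libraries, with 14 of the 15 tested fitted higher in treatment at a median log2 fold change of 0.89 and 0 called. B cell markers went the other way, with 4 of 4 fitted lower at a median of -1.53 and 0 called. The 10 pan-leukocyte markers summed to 5604 to 7139.6 CPM in treatment and 6977 to 7983 CPM in control libraries. The 14 granulosa markers summed to 56.0 to 4826 CPM in treatment and 75.7 to 603 CPM in control libraries, and 9 theca and stromal markers to 401 to 11020.0 CPM in treatment and 532 to 2321 CPM in control libraries. Their part in the BOLA difference was not tested. PTPRC itself was 226, 129.9 and 312 CPM in treatment libraries against 135, 295, 118 and 184 CPM in control libraries. Per unit of PTPRC, a measure chosen after the values were seen, BOLA was 0.492, 0.452 and 0.326 in treatment libraries 1, 2 and 3 and 0.279, 0.209, 0.320 and 0.270 in control libraries 1, 5, 6 and 9. These values did not overlap, as for 0.414% of 9661 features in the same direction and 0.631% in the other, and treatment 3 and control 6 nearly touched. None of the other 7 members was separate between labels in this ratio, nor was any of the 8 in granulosa-rich libraries, where 0.238% of features were higher and 0.166% lower throughout.

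Within granulosa-rich libraries the fitted difference of each member tested was smaller than its standard error. B2M had a log2 fold change of 0.15 ± 0.58 (SE), BOLA 0.14 ± 0.91, ERAP1 0.21 ± 0.44, TAPBP 0.07 ± 0.27, PSMB9 -0.14 ± 0.48 and TAP2 -0.20 ± 0.40, with edgeR adjusted p-values of 0.988 to 0.995. Leaving out each library in turn gave -0.06 to 0.70 for B2M and -0.43 to 0.83 for BOLA. None of the 6 members tested had an unadjusted p under 0.05, where 4.67% of 9272 features did, and 0.0% were called at the adjusted threshold. DESeq2's Wald test called 21 features, 6 higher and 15 lower, none of them a member. PSMB8 and PSMB10 were too low to be tested in this kind. The median of the 6 members was 0.11 and that of all features 0.04. Monocyte and macrophage markers summed to 363 to 1922 CPM in treatment and 22.7 to 770.5 CPM in control libraries, with 8 of 8 tested fitted higher and 0 called. T and NK cell markers had 9 of 10 tested fitted higher. Theca and stromal markers had 6 of 7 fitted lower, at a median log2 fold change of -1.51, and granulosa markers 10 of 14 lower, at -0.43, with 0 called in each list. Pan-leukocyte markers summed to 274 to 851 CPM in treatment and 26.2 to 1009.7 CPM in control libraries, with 9 of 9 tested fitted higher and 0 called, and the part of these cells in these values was not tested.

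**Figure D5:**
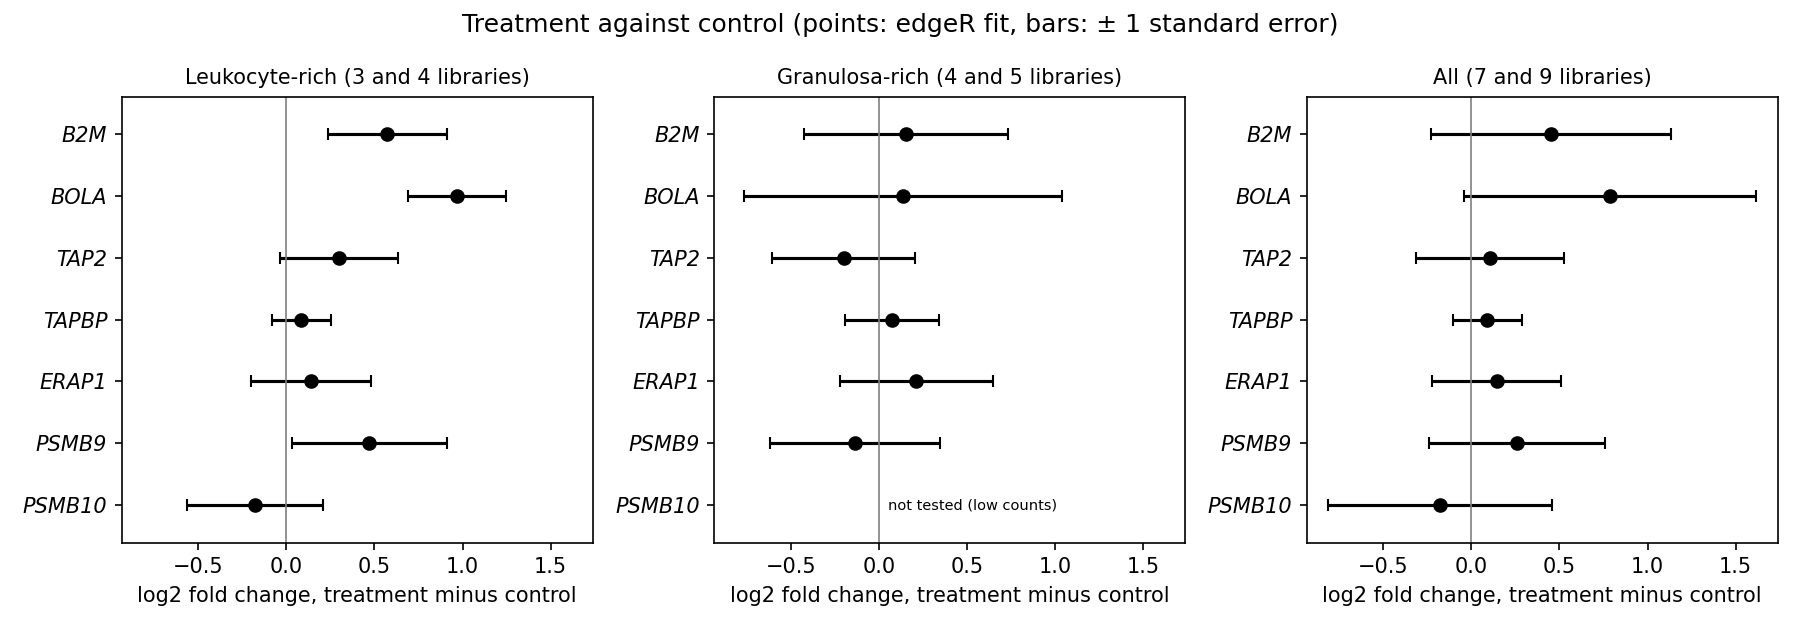
Log2 fold change of treatment over control for each member from edgeR, as points with bars of 1 standard error, in leukocyte-rich, granulosa-rich and all libraries. BOLA in leukocyte-rich libraries, at 0.97 ± 0.28, stands farthest from 0 relative to its error, and no member passed the adjusted threshold in any panel.

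Over all 16 libraries, with both kinds mixed, no member passed either. BOLA had 0.79 ± 0.83, B2M 0.45 ± 0.68, PSMB9 0.26 ± 0.50, ERAP1 0.14 ± 0.37, TAP2 0.11 ± 0.42, TAPBP 0.09 ± 0.20 and PSMB10 -0.18 ± 0.64 (SE; edgeR adjusted p = 0.9999 for each), at a background of 0.0% of 9653 features called and 1.69% with an unadjusted p under 0.05. Leaving out each library in turn gave 0.40 to 1.06 for BOLA and 0.0774 to 0.72 for B2M, and other settings gave 0.22 to 0.82 for BOLA and 0.28 to 0.80 for B2M. DESeq2 called 3 features, again no member. The difference of the treatment effect between the kinds was tested as an interaction, granulosa-rich minus leukocyte-rich, with 0.0% of 11468 features called and 5.31% under an unadjusted p of 0.05. For PSMB8 it was 6.02 ± 2.50 (SE; edgeR adjusted p = 0.911), with an unadjusted p under 0.05, and control 9 held 324 of the gene's 432 counts. It was 1 of 8 members tested below that unadjusted limit. No member's treatment effect, and no difference of that effect between the kinds, thus passed the adjusted test. In raw CPM, 0 of 8 members were separate between labels in either kind, where 2.33% of all features were higher and 1.14% lower throughout with treatment in leukocyte-rich libraries, and 1.09% and 0.281% in granulosa-rich libraries. Over features with a mean of at least 1 CPM these shares were 1.98% and 1.78% in leukocyte-rich and 1.31% and 0.528% in granulosa-rich libraries.

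The rest of the pathway was described through lists of genes. Among 12 further class I heavy chains and class I-like chains found of 16 listed, 4 were higher in every leukocyte-rich library, where 5.88% of all features and 11.4% of those with a mean of at least 1 CPM were, and 8 overlapped. FCGRT, the neonatal Fc receptor chain that also pairs with beta-2-microglobulin, measured 77.7 to 181 CPM in leukocyte-rich libraries, with a median of 116, and 2.86 to 31.1 CPM in granulosa-rich libraries, with a median of 5.19. MR1, which presents vitamin B metabolites to T cells, measured 4.94 to 8.61 CPM in leukocyte-rich and 0.610 to 2.53 CPM in granulosa-rich libraries. The remaining separate genes were MIC1 and CD1D, a presenter of lipids, named after their values were seen. Of 12 loading factors and chaperones, none was higher throughout and 2 were lower, where 2.95% of all features and 6.14% of those with a mean of at least 1 CPM were lower, namely SEC61G of the translocon and the glucosidase subunit GANAB, also named after their values were seen. CALR, the chaperone calreticulin of the loading complex, had medians of 3715 CPM in leukocyte-rich and 2945 CPM in granulosa-rich libraries, with overlap.

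Of 9 aminopeptidases and cytosolic peptidases, 2 were higher in every leukocyte-rich library, and this count and the further ones of genes higher throughout stand beside the same 5.88% of all features and 11.4% of those with a mean of at least 1 CPM. LAP3, the leucine aminopeptidase, measured 613 to 1343 CPM in leukocyte-rich and 108 to 607 CPM in granulosa-rich libraries. ERAP2, which trims peptides beside ERAP1 and was named after its values were seen, measured 41.0 to 82.2 CPM in leukocyte-rich and 2.70 to 17.3 CPM in granulosa-rich libraries. ERAP2 was thus separate between the kinds where ERAP1 overlapped. Of the proteasome genes, the 3 constitutive catalytic subunits and 15 other core subunits and assembly factors all overlapped. Of 4 genes listed as proteasome activators 3 overlapped too, and 1 was higher throughout. This was the activator subunit PSME1, with 395 to 630.4 CPM in leukocyte-rich and 144 to 313 CPM in granulosa-rich libraries. Of 14 genes for transcription of class I genes, 3 were higher throughout, among them RELA, a subunit of NF-kappa-B, at 178 to 239.8 CPM in leukocyte-rich and 40.0 to 129 CPM in granulosa-rich libraries. The others, IRF2 and IRF8, and 2 of 8 interferon receptors and kinases, IFNGR1 and IFNAR2, were named after their values were seen.

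Between treatment and control no gene of these lists was called in either kind. In leukocyte-rich libraries THOP1, a cytosolic oligopeptidase that degrades peptides, had a log2 fold change of -0.64 ± 0.21 (SE; edgeR adjusted p = 0.9996), and XPNPEP1, an aminopeptidase that cleaves before proline, had -1.19 ± 0.42 (adjusted p = 0.9996). THOP1 and XPNPEP1 were lower in every treatment than in every control library there, as were 1.14% of all features. MR1 was higher throughout, at 6.23 to 8.61 CPM with treatment and 4.94 to 5.87 CPM with control, as were 2.33% of all features. HFE, a class I-like chain that regulates iron uptake, had 0.73 ± 0.33 in leukocyte-rich and -1.03 ± 0.48 in granulosa-rich libraries (edgeR adjusted p of the interaction 0.911). Its levels were 35.0, 24.0 and 20.8 CPM in leukocyte-rich treatment libraries and 17.5, 9.16, 21.7 and 15.2 CPM in leukocyte-rich control libraries. Treatment 3 lay below control 6, so HFE overlapped between labels there. In granulosa-rich libraries HFE was 15.1, 3.46, 14.3 and 8.18 CPM with treatment and 14.7, 17.7, 26.5, 15.5 and 12.1 CPM with control, and overlapped too. The median log2 fold change was 0.30 over 10 class I-like chains, -0.07 over 11 loading factors, -0.05 over 8 peptidases and 0.34 over 8 interferon receptors and kinases in leukocyte-rich libraries, beside 0.01 over all features. There it was also -0.12 over 3 constitutive catalytic subunits and -0.11 over 14 other core subunits and assembly factors. It was 0.04 over 4 proteasome activators and 0.01 over 11 genes for transcription of class I genes.

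The genes most like the members were found among 4911 candidates with a symbol and a mean of at least 10 CPM, by the mean of 2 Pearson correlations with the members' mean log2 CPM, 1 over the 7 leukocyte-rich and 1 over the 9 granulosa-rich libraries. GBP1, a guanylate-binding protein, came first with 0.889. UBA7, the enzyme that activates the ubiquitin-like protein ISG15, had 0.875, the endocytic receptor LY75 0.868, the tryptophanyl-tRNA synthetase WARS1 0.860 and the formin-binding protein FNBP1 0.849. With the sparsely counted PSMB8 and PSMB10 left out of the mean, a choice made after the values were seen, GBP1 had 0.932, followed by ARHGAP15 at 0.900, EVI2B at 0.894, ARHGDIB at 0.881 and CDADC1 at 0.871. GBP1 was first in both orders, and the other 4 places changed.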

How the data were processed

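Per the labels' protocols, 200 ng of total RNA of integrity 7 or above went into poly(A) selection and an unstranded library kit with 12 amplification cycles, so that overlapping and antisense genes are not resolved. The submitters' processing notes name cutadapt, Bowtie2 and SAMtools. Their versions, the build, the annotation and the handling of reads with several matches are not stated in the labels. The deposited files hold whole-number counts per RefSeq accession, not normalized. Of 27306 accessions, 133 genomic records (0.712 to 1.92% of a library's counts) were left out, and 18973 of the remaining 27173 matched a symbol in RefSeq's table of ARS-UCD2.0, which gave names and neighbours only. Summing per gene gave 12429 genes and 20629 features.

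CPM used all transcript counts. edgeR 4.0.16 (R 4.3.3, TMM scaling, filter on low counts by label, robust quasi-likelihood fit, Benjamini-Hochberg adjustment over all features, threshold 0.05) was fitted within each kind, over all libraries and with an interaction. All fits but the interaction were also run on simulated counts with large planted changes and a fixed spread between libraries. That run does not show how the fits do with small changes or with a spread like that of these libraries. DESeq2 1.42.0 was an alternative. Standard errors were taken as the log2 fold change over the root of F. Ratios and correlations used exact permutation, with ranks from SciPy 1.17.1. Floors of 3 counts cover counting error only, since reads carry no molecular identifiers. All members found are named; from each other list the rule allowed the most abundant gene and those with the 2 lowest p-values within a kind, of which some are named, picked with their values in view. The 5 genes most like the members are named, and genes outside the rule are marked as such. The members and lists were chosen with earlier results of these data known. Alternatives were other scalings, filters, pseudocounts, covariates, a replicate block and leaving out each library. No 2 libraries were duplicates (highest correlation 0.943).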

Additional observations from a re-analysis of the deposited data

Results flagged for a closer look

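In 40 groups of 4 to 9 libraries, the highest or lowest library was checked for a gap to its neighbours that is wide for the group's range, and chance flags about 1 in 20 such groups. PSMB8 stood out in 5 of them. It was 40.5 CPM in control 9, against 0.147 to 0.180 CPM in the other leukocyte-rich control libraries and 0.147 to 3.13 CPM in the other control libraries as a whole. It was 3.54 CPM in treatment 7, against 0.198 to 0.610 CPM in the other granulosa-rich treatment libraries and 0.164 to 0.610 CPM in the other treatment libraries as a whole. In control 8 PSMB8 was 3.13 CPM, against 0.162 to 0.317 CPM in the other granulosa-rich control libraries. These 3 libraries carry both labels and both kinds. JSP.1 was 161 CPM in control 9, 30.6 CPM in treatment 7 and 13.2 CPM in control 8, and also 223 CPM in treatment 1 and 17.3 CPM in control 4, where PSMB8 had 2 and 3 counts. PSMB10 was 1.85 CPM in control 3, against 0.108 to 0.566 CPM in the other granulosa-rich control libraries, on 20 counts. Control 3 was also highest of this group for B2M, at 1718 CPM, and for BOLA, at 23.2 CPM.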

How the results depend on the processing

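No member passed the adjusted threshold under any alternative to the label comparisons, over 345 member values, of which 323 kept their direction. The count of called features was 0 under every edgeR setting, the replicate block included, and under DESeq2's Wald test 3 in all, 21 in granulosa-rich and 1 in leukocyte-rich libraries. Whether replicate numbers pair libraries could not be told. The correlation of same-numbered libraries, as deviations from the label mean, ran from -0.605 to 0.605 over 7 numbers, and none was best with its own number. It was 0.605, 0.314 and 0.439 for numbers 1, 4 and 7, whose libraries are of the same kind. For numbers 2, 3, 5 and 6, whose libraries differ in kind, it was -0.605, -0.274, -0.446 and -0.599. The kind was not taken out, so this check cannot decide on pairing. Leukocyte-rich libraries of the 2 labels share 1 number, so no paired fit was possible there. Granulosa-rich libraries of the 2 labels share only numbers 4 and 7, so the replicate block is a weak check in that kind.

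Directions turned as follows, and the cause was not tested. With the replicate block the log2 fold change of TAPBP was -0.0161 over all and -0.43 in granulosa-rich libraries, and that of TAP2 was 0.0856 in granulosa-rich libraries. Both granulosa-rich values rest on replicate numbers 4 and 7, the only ones found under both labels in that kind. With PTPRC as a covariate it was -0.0401 for TAP2 and -0.0648 for PSMB9 over all, and -0.0642 for BOLA in granulosa-rich libraries. With library size alone PSMB9 had 0.0305 in granulosa-rich libraries, and with a pseudocount of 5 the PSMB10 to PSMB7 difference was 0.0947 there; without a pseudocount it could not be computed, for a count of 0. The r with PTPRC in granulosa-rich libraries was -0.0863 for TAP2 and -0.0377 for TAPBP with TMM scaling, and -0.16 and -0.0129 without the 2 farthest libraries. With pan-leukocyte markers in place of PTPRC it was -0.029 for TAPBP in granulosa-rich libraries, and -0.26 for TAP2, -0.35 for PSMB8 and -0.0584 for PSMB10 in leukocyte-rich libraries, where TAP2 had 0.91 without the 2 farthest libraries (exact permutation p = 0.0417) against 0.22 with all 7.

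Leaving out each library in turn left 0 features called throughout and 3 or 4 members separate between kinds, 4 only without control 1. The log2 fold change over all libraries then ran from -0.25 to 0.35 for TAP2, -0.0892 to 0.16 for TAPBP, -0.13 to 0.57 for PSMB9, -0.40 to 0.0325 for PSMB10 and -0.096 to 0.32 for ERAP1. In granulosa-rich libraries it ran from -0.43 to 0.83 for BOLA, -0.0623 to 0.70 for B2M, -0.37 to 0.0126 for TAP2, -0.22 to 0.22 for TAPBP and -0.37 to 0.10 for PSMB9. In leukocyte-rich libraries it ran from -0.0726 to 0.56 for TAP2, -0.0844 to 0.22 for TAPBP and -0.16 to 0.43 for ERAP1. The subunit ratios ran from -0.81 to 1.01 for PSMB8 to PSMB5, -0.48 to 0.21 for PSMB9 to PSMB6 and -0.89 to 0.94 for PSMB10 to PSMB7 in granulosa-rich libraries, and from -2.25 to 0.46 for PSMB8 to PSMB5 and -0.23 to 0.15 for PSMB10 to PSMB7 in leukocyte-rich libraries.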
